A study of Mus musculus with 2 samples.

Results

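The oxidative phosphorylation subunits described here are the 98 protein-coding genes whose mouse symbols follow the naming pattern of the subunits of respiratory complexes I to IV and of the ATP synthase (complex V), out of 43346 Ensembl genes and 21474 protein-coding genes in both gene tables. Of these members, 85 are encoded in the nucleus and 13 in mitochondrial DNA. By complex they number 43 (I), 4 (II), 9 (III), 23 (IV) and 19 (V). The nuclear members comprise 75 subunits, 8 isoforms of subunits known for particular tissues or conditions, and 2 associated factors, Cox7a2l and Atp5s. The pattern misses genes known to belong here under other symbols, and 3 such genes were looked up, not a full list. These were the cytochrome c1 gene Cyc1 (343 ± 2.52 TPM), Usmg5 (1055 ± 185 TPM) and the ATP synthase inhibitor gene Atpif1 (869 ± 6.23 TPM). They are not members.

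The tissue is whole stomach of B6NCrl mouse embryos at 16.5 days, male and female pooled, profiled by RNA sequencing of RNA longer than 200 nucleotides. There is 1 group of 2 biological replicates, with no treatment, genotype or second condition. Replicate 2 pools 41 embryos, and the labels give no number for replicate 1. Levels are in TPM, the relative abundance of a gene's transcripts after correction for their length, and are given per library or as mean ± SD over n = 2 libraries, so the SD measures only the spread between these 2 pools. With 2 libraries an exact sign-flip test cannot give a p below 0.5, and no test was made of any comparison below.

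The libraries held 44567153 and 25677702 expected counts (reads assigned to genes, with reads that match several genes divided among them) in replicates 1 and 2. All 12 of 12 stomach markers (among them Barx1, Krt4, Tff1 and Pga5) reached 1 TPM in both libraries, with a summed level of 3949 TPM in replicate 1 and 6629 in replicate 2. Krt4 (1787 and 3252 TPM) and Krt13 (1505 and 2399 TPM) held most of these sums. Barx1, Gata4 and Sox2, 3 of the 12, were higher in replicate 1. All 16 skeletal muscle markers were higher in replicate 1, with summed levels of 2803 and 247 TPM. The 4 Y-linked genes measured (Ddx3y, Eif2s3y, Uty and Kdm5d) also exceeded a 2-fold difference, with replicate 1 higher, and Xist stood at 20.4 and 35.2 TPM. In whole tissue, fewer cells of a type and less RNA per cell cannot be told apart.

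Oxidative phosphorylation makes ATP in the inner mitochondrial membrane. Complex I (NADH dehydrogenase) and complex II (succinate dehydrogenase) pass electrons through ubiquinone to complex III, and cytochrome c carries them to complex IV (cytochrome c oxidase), which reduces oxygen. Complexes I, III and IV pump protons, and complex V uses the gradient to form ATP. Mitochondrial DNA encodes core membrane subunits of complexes I, III, IV and V, none of complex II, and the nucleus encodes all others, some of them as alternative isoforms in muscle, testis or lung. In the adult stomach the acid-secreting parietal cell is known for its dense mitochondria. At this stage all 8 of its markers reached 1 TPM in both libraries, with summed levels of 325 and 409 TPM. Car2 alone stood at 231 and 262 TPM, most of each sum. The proton pump genes Atp4a (17.8 and 37.3 TPM) and Atp4b (49.6 and 76.1 TPM) were present.

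Nearly the whole set was expressed at high level. In all, 96 of 98 members reached 1 TPM in both libraries, against 64.3% of protein-coding genes, and 87 reached 100 TPM in both, against 6.85% of protein-coding genes. The exceptions at 1 TPM were Cox7b2 and Cox8c, isoforms known from testis. The median nuclear member stood at 302 TPM in replicate 1 and 289 TPM in replicate 2 (295 ± 9.54), above 96.7% ± 0.154 of the protein-coding genes detected in both libraries, whose median was 17.4 ± 0.311 TPM. The nuclear members together held 3.50% and 3.34% of all gene TPM. The median mitochondrial member stood at 1193 and 1015 TPM, and the 13 together held 2.80% and 2.53%. The 75 nuclear subunits, the isoforms and associated factors left out, differed between libraries by a median of 5.77% of their mean, and 71 of them by 20% or less. These percentages were not computed for other genes, so they do not show a trait particular to the subunits.

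**Figure D1:**
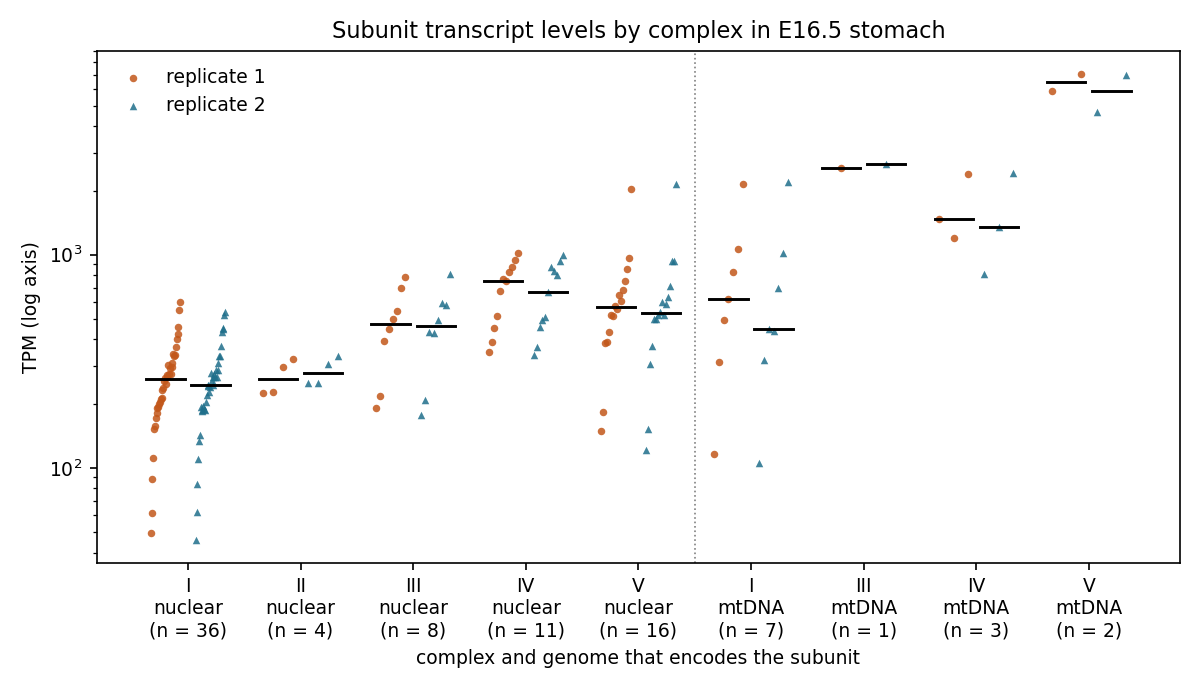
TPM of the 88 subunits (tissue isoforms and associated factors left out) on a log axis, by complex and by the genome that encodes them; circles are replicate 1, triangles replicate 2, and black bars the median of a group in a library. The nuclear complex I medians of 260 and 244 TPM lie below those of complexes III, IV and V in both libraries, and the 2 mitochondrial subunits of complex V lie highest.

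The nuclear subunits were ordered by complex. Complex IV was highest, with median levels of 751 and 667 TPM, followed by complex V (566 and 531 TPM), complex III (474 and 463 TPM), and complexes II (261 and 279 TPM) and I (260.0 and 244 TPM). On the log2(TPM + 0.1) scale the difference in medians from complex I was 1.49 ± 0.06 for complex IV, 1.12 ± 0.003 for complex V and 0.89 ± 0.04 for complex III, above 0 in both libraries. For complex II it was -0.005 in replicate 1 and 0.18 in replicate 2, so complexes I and II were not separated beyond the spread between libraries. Keeping the lowly expressed tissue isoforms lowered the complex IV difference to 0.59.

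Within complex I, the 7 nuclear core subunits, which include the carriers of the flavin and iron-sulfur centres, had lower transcript levels than the 29 accessory subunits around them: the medians were 190.1 and 194 TPM for the core against 266 and 258 TPM, a log2 difference of -0.45 ± 0.05. In the NADH-binding module, Ndufs1, the largest core subunit, stood at 110.7 and 110.4 TPM in replicates 1 and 2, Ndufv1 at 183 ± 3.40 and Ndufv2 at 275 ± 1.36. In the quinone-binding module, Ndufs3 stood at 188 ± 3.27, Ndufs7 at 282 ± 8.87 and Ndufs8 at 182 ± 16.2. The core genes thus spanned 111 to 282 TPM, and the accessory subunits reached from 47.8 ± 2.56 TPM for Ndufb4 to 568 ± 44.2 for Ndufc1. The low value of Ndufb4 is taken up with its copy below.

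Complex II, the only complex with no mitochondrially encoded subunit, was the most even, with 1.39-fold between its highest and lowest gene. Sdha, the flavoprotein and the lowest, stood at 223 and 249.96 TPM in replicates 1 and 2, and Sdhb, the iron-sulfur subunit and the highest, at 325 and 335 TPM. The membrane anchors Sdhc and Sdhd lay between, at 238 ± 15.4 and 302 ± 8.20. All 4 had slightly lower count ratios in replicate 1, with log2 ratios from -0.10 to -0.006.

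In complex III, the small membrane subunit gene Uqcr10 stood highest at 787 and 808 TPM, and the large core proteins Uqcrc1 and Uqcrc2 at 413 ± 29.9 and 183.5 ± 10.7. Uqcrfs1, the Rieske iron-sulfur protein that takes part in electron transfer, stood at 212 ± 6.93. Uqcrc2 was the lowest gene of the complex in both libraries, and none of the 8 differed between libraries as much as the 4.34-fold span from Uqcrc2 to Uqcr10.

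The nuclear subunits of complex IV spanned 2.94-fold, from Cox7b (350 and 338 TPM) to Cox6b1 (1020 and 1001 TPM), an intermembrane-space subunit. Cox4i1, the main form of subunit IV, stood at 937 ± 8.29 TPM, Ndufa4, which belongs to complex IV despite its name, at 841 ± 47.8, Cox8a at 831 ± 7.10 and Cox6a1 at 813 ± 88.1. Cox7a2l, a factor known for joining complexes III and IV into supercomplexes, stood at 134 and 136 TPM.

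Complex V spanned 15.5-fold in deposited TPM, from Atp5g2 to Atp5b, and complex I 11.9-fold. Both spans depend on how reads were divided with copies: with the copies' reads added, as described below, they were 6.06-fold (Atp5g2 to Atp5b) and 9.53-fold (Ndufa11 to Ndufab1). The complex I span also rests on annotated length. Ndufa11 had 4816 and 2732 expected counts over 2661 bases, or 61.2 and 62.1 TPM. Ndufa2 had 4866 and 2706 expected counts over 572 bases, or 335 and 333 TPM. Atp5b (chr10:128083273-128090391), the catalytic beta subunit and the highest nuclear member, stood at 2031 and 2156 TPM in replicates 1 and 2, and Atp5a1, the alpha subunit, at 854 and 934 TPM. The other parts of the head and central stalk were lower: Atp5c1 (gamma) stood at 510.1 ± 15.4, Atp5d (delta) at 466 ± 45.2 and Atp5e (epsilon) at 587 ± 89.9. The rotating ring is built from a single mature protein that 3 genes encode, and their levels were unequal: Atp5g3 stood at 961 and 932 TPM, Atp5g1 at 559 and 598, and Atp5g2 at 149 and 122. The peripheral stalk genes lay between 381 ± 11.8 (Atp5f1) and 730.3 ± 29.8 (Atp5j). Atp5s, which the pattern matches but which is a coupling factor related protein, stood far lower, at 12.1 and 10.6 TPM.

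The 13 mitochondrially encoded members lie on chromosome M (GRCm38), where all but mt-Nd6 are read from the same strand as parts of long precursor transcripts. The 2 ATP synthase genes led: mt-Atp6 (chrM:7927-8607) stood at 7049 and 7002 TPM in replicates 1 and 2 and mt-Atp8 (chrM:7766-7969), which it overlaps on the same strand, at 5867 and 4701. The cytochrome b gene mt-Cytb stood at 2545 and 2654 TPM, mt-Co1, the catalytic subunit of complex IV, at 2401 and 2421, and mt-Nd1 at 2156 and 2188. These 3 kept the same order in both libraries, and their SDs of 76.5, 14.2 and 22.5 TPM were smaller than the gaps between their means. Next came mt-Co2 at 1193 and 1349.9 TPM, mt-Co3 at 1478 and 809, and mt-Nd4 at 1066 and 1015, whose order changed between libraries. The lower group held mt-Nd2 (833 and 696 TPM), mt-Nd3 (622 and 441), mt-Nd6 (492 and 447), mt-Nd5 (315 and 322) and mt-Nd4l (116 and 105). Of these, mt-Nd4l (chrM:9877-10173) overlaps mt-Nd4 (chrM:10167-11544) on the same strand. Values of overlapping genes, as also for mt-Atp8 and mt-Atp6, need not be levels of separate transcripts. On the opposite strand, mt-Nd6 (chrM:13552-14070) overlaps the end of mt-Nd5 (chrM:11742-13565). Whether the libraries keep strand is not given, so reads antisense to mt-Nd6 cannot be told from its own. The median mitochondrial member exceeded the median nuclear member by 1.98 on the log2 scale in replicate 1 and 1.81 in replicate 2.

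Several of these levels depend on how reads were divided between a gene and a copy of it elsewhere in the genome. The nuclear genome carries a stretch of mitochondrial DNA on chromosome 1 whose genes are annotated as unprocessed pseudogenes, lying on its minus strand. The first 60 bases of mt-Co3 and of its chromosome 1 copy Gm28437, and of mt-Nd3 and its copy Gm28438, are shown because a read that lies inside an identical stretch cannot be assigned to gene or copy by its sequence. They are given 5′ to 3′ on the gene's strand in GRCm38, with any base that differs in capitals.
mt-Co3, chrM:8607-8666, plus strand: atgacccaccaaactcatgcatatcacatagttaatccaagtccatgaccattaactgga
Gm28437, chr1:24613912-24613971, minus strand: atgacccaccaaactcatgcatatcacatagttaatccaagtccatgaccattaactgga
mt-Nd3, chrM:9459-9518, plus strand: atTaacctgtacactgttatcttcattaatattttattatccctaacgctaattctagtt
Gm28438, chr1:24613060-24613119, minus strand: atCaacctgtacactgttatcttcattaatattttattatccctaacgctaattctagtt
The first pair is identical over the 60 bases, and the second holds 1 substitution, T3C, with the mitochondrial base first and positions counted from the first base of the coding sequence. All 783 bases of Gm28437 match mt-Co3, and 684 of the 685 windows of 100 bases in mt-Co3 occur in it; the copies of mt-Co2 and mt-Atp6 match over 681 and 678 bases with no difference. In all, 8 of the 13 mitochondrial members share at least 1 such window with an annotated pseudogene on chromosome 1 or 2; for mt-Nd2 the only one lies on chromosome 2 and shares 30 of 939 windows.

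The deposited counts divided these reads unevenly. The copy Gm28437 held 82.7% of the expected counts of the pair in replicate 1 and 90.5% in replicate 2, leaving 31077 and 9511 to mt-Co3 itself. The copies of mt-Nd4l, mt-Co2 and mt-Nd3 held 78.6% and 79.1%, 70.1% and 68.5%, and 68.5% and 70.3%. The copy Gm10925 of mt-Atp6 held only 7.80% and 2.07%, and Gm28439, which matches 876 bases of mt-Nd4, held 3.54 and 0 counts. For mt-Co3 the deposited bounds around TPM ran from 1030 to 5737 in replicate 1 and from 567 to 5676 in replicate 2 (their level is not stated), and the deposited posterior mean TPM was 2862 ± 62.2, not the 1144 ± 473 of the TPM column. The posterior standard deviation of the count exceeded 10% of its mean in 5 of the 93 members with 100 counts or more in both libraries: mt-Co3, mt-Co2, mt-Nd4l, mt-Nd3 and mt-Atp6. Among members without a copy it was at most 0.207%.

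Adding the copies' reads to the members changed the order of the mitochondrial levels. With them, mt-Co3 stood at 8555 and 8520 TPM in replicates 1 and 2 and became the highest member of all, followed by mt-Atp6 (7398 ± 349), mt-Atp8 (5284 ± 825, no copy found), mt-Co2 (4142 ± 207) and mt-Co1 (3149 ± 79.8). The share of all gene TPM in the 13 members became 4.04% ± 0.208 in place of 2.67% ± 0.192, and the median 2172 ± 22.5 TPM. The log2 difference between the mitochondrial and nuclear medians became 2.78, with copies of nuclear members added as well. Whether the reads on the copies came from mitochondrial transcripts was not tested.

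**Figure D2:**
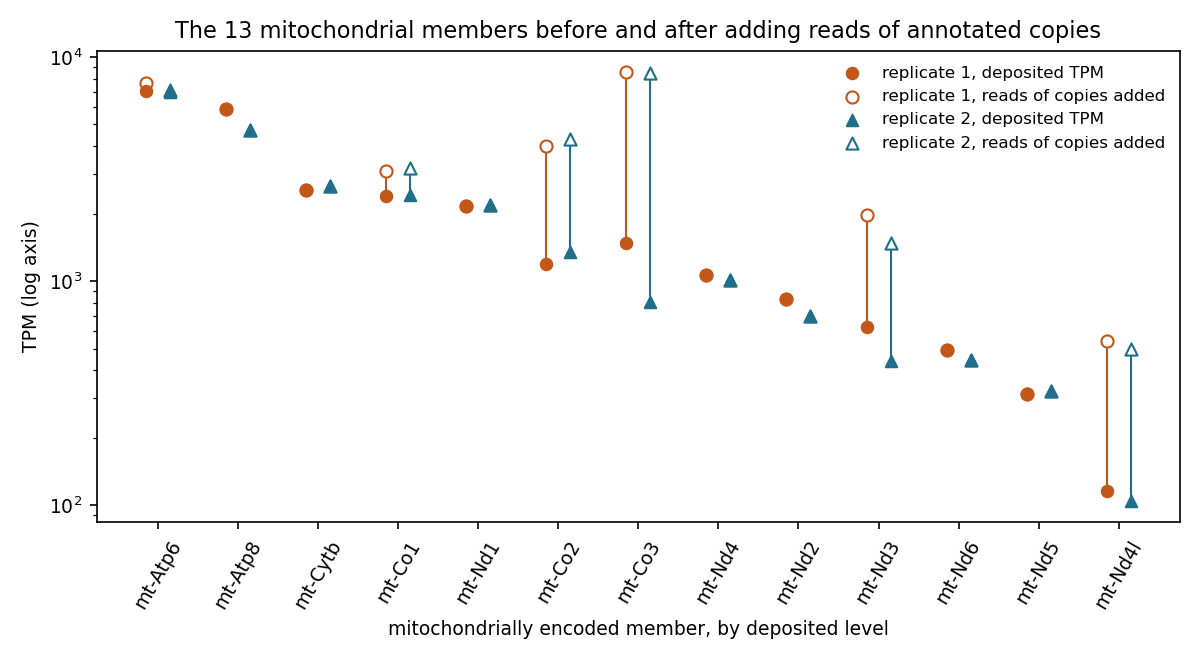
TPM on a log axis of the 13 mitochondrially encoded members in order of deposited level; filled symbols are the deposited TPM, open symbols the level with the reads of annotated copies added over the member's own length, circles replicate 1 and triangles replicate 2. For mt-Co3 the filled symbols stand apart at 1478 and 809 TPM and the open ones coincide at 8555 and 8520.

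Copies also touched nuclear members, 15 of which shared an exact stretch of 100 bases with an annotated pseudogene. In 3 of them, adding the reads of the copies raised the level more than 1.5-fold. Ndufb4 (chr16:37647170-37654453), an accessory subunit of complex I, is one: its processed copy Ndufb4c on chromosome 15 matches it over all 390 of the copy's bases. The first 60 bases from the start codon are shown, the member's from its first coding exon, because no letter in them differs.
Ndufb4, chr16:37654300-37654359, minus strand: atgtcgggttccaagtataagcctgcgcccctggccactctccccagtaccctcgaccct
Ndufb4c, chr15:73809837-73809896, minus strand: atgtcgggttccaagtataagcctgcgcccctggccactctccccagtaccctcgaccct
Ndufb4 had 755 and 420.1 expected counts in replicates 1 and 2, and Ndufb4c 2540 and 1402, or 77.1% and 76.9% of the pair. With them added, Ndufb4 stood at 208 ± 12.1 TPM in place of 47.8 ± 2.56. Its leading transcript, Ndufb4-202 with a retained intron, held 74.4% and 67.2% of the gene's deposited TPM. The membrane subunit gene Atp5l moved from 167 ± 21.5 to 755 ± 51.5 TPM and Atp5g2 from 135 ± 19.0 to 345 ± 11.6, so both ring genes below Atp5g3 were affected: Atp5g1 moved from 578 ± 27.2 to 739 ± 19.1. Cox7c moved from 595 ± 118 to 758 ± 138. The median of all nuclear members became 316 TPM and the complex V difference from complex I 1.23 in log2, so the order of the complexes did not change.

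**Figure D3:**
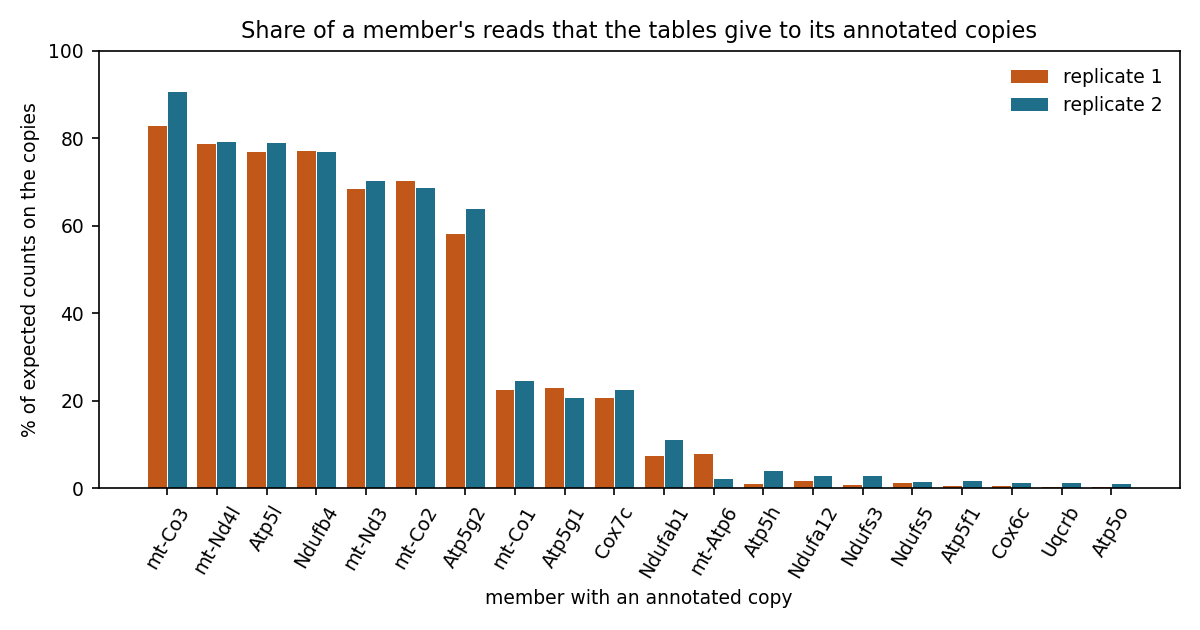
Share of a member's expected counts (member plus copies, in %) that the deposited tables assign to its annotated copies, for members where it reaches 1% in either library; orange bars are replicate 1 and blue bars replicate 2. For 7 members, led by mt-Co3 at 82.7% and 90.5%, most reads lay on the copies in both libraries, and for mt-Atp6 few did.

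Tissue isoforms of complex IV were low beside their ubiquitous partners. The 3 muscle isoforms, which replace subunits VIa, VIIa and VIII in heart and skeletal muscle, differed most between the pools. Cox6a2 (chr7:128205435-128206387) stood at 29.3 and 1.04 TPM in replicates 1 and 2, from 503 and 10 expected counts (95% Poisson intervals 460.0 to 549 and 4.80 to 18.4, which cover counting error only). Its partner Cox6a1 stood at 751 and 875 TPM, so the muscle form made up 3.76% and 0.119% of the pair. Cox8b (chr7:140898945-140900446) stood at 16.0 and 1.11 TPM, from 129 and 5 counts (108 to 153 and 1.62 to 11.7), beside Cox8a at 826 and 836, or 1.90% and 0.133% of the pair. Cox7a1 (chr7:30184144-30186078) stood at 22.1 and 11.4 TPM, from 180 and 52 counts, beside Cox7a2 at 391 and 368, or 5.36% and 3.01%. All 3 muscle forms were higher in replicate 1; of the partners, Cox6a1 was lower there, and Cox7a2 and Cox8a differed between libraries by 6.06% and 1.21% of their means.

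Skeletal muscle markers moved with these isoforms. Of the 16 markers, 16 exceeded a 2-fold difference with replicate 1 higher, with log2 ratios from 1.12 to 4.85 and a median of 4.38: Acta1 stood at 906 and 101 TPM, Myl1 at 405 and 17.6, and Ckm, a muscle creatine kinase, at 238 and 33.5. Cox6a2 had a log2 ratio of 4.66, near that median, and Cox7a1 one of 0.97. Heart markers were low: 5 of 10 reached 1 TPM in both libraries, 4 exceeded a 2-fold difference with replicate 1 higher, and the summed levels were 139 and 86.6 TPM. The heart myosin gene Myh6 (0.42 and 0.12 TPM) and Nppa (0.15 and 0.15 TPM) were near 0, while Myl7 stood at 26.3 and 36.1 TPM. Tnnt2, the highest by mean, stood at 39.3 and 34.05 TPM. Myl4 (48.2 and 8.70 TPM) and Myl2 (13.9 and 0.89 TPM) were among the 4 beyond 2-fold, with log2 ratios of 2.58 and 3.74. Of the 6 brown fat markers, 2 reached 1 TPM in both (Pparg and Ppargc1a), the summed levels were 20.7 and 24.9 TPM, and Ucp1 stood at 0.04 and 0.08 TPM. Markers of smooth muscle, the muscle of the stomach wall, had summed levels of 5920 and 7141 TPM, and 7 of 8 were lower in replicate 1. Other lists were also higher in replicate 1: all 8 liver markers, with summed levels of 1561 and 1239 TPM, and 3 of the 6 kidney and adrenal markers (the steroidogenic genes Star, Cyp11a1 and Nr5a1), which exceeded a 2-fold difference at summed levels of 10.9 and 2.45 TPM for the list. The part of each cell type in the isoform levels was not tested.

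**Figure D4:**
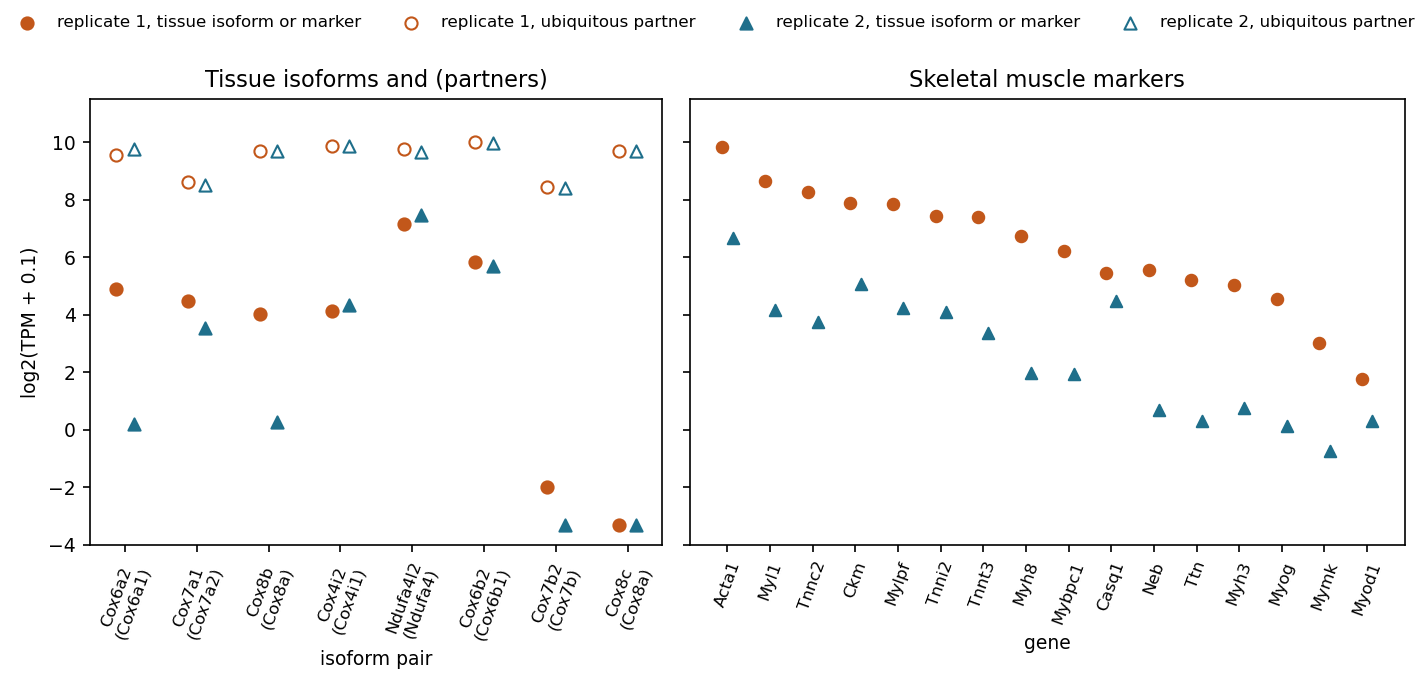
log2(TPM + 0.1) in replicate 1 (circles) and replicate 2 (triangles); left, the 8 tissue isoforms (filled) with their ubiquitous partners (open), right, the 16 skeletal muscle markers. Cox6a2 and Cox8b drop between libraries as the markers do (29.3 to 1.04 and 16.0 to 1.11 TPM), and Ndufa4l2 and Cox4i2 stand higher in replicate 2 (142 against 176 and 17.3 against 20.0 TPM).

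The isoforms tied to low oxygen or to lung showed the opposite order. Ndufa4l2 (chr10:127514967-127517154), a hypoxia-induced relative of Ndufa4, was the most abundant isoform at 142 TPM in replicate 1 and 176 in replicate 2, or 14.0% and 17.9% of the pair. Cox4i2 (chr2:152754173-152765037), known from lung and from oxygen sensing, stood at 17.3 and 20.0 TPM, or 1.80% and 2.11% beside Cox4i1. Among the testis isoforms, Cox6b2 (chr7:4751792-4753094) was expressed at 56.9 and 51.5 TPM, or 5.28% and 4.90% beside Cox6b1. Cox7b2 had 2 and 0 expected counts, and Cox8c had 0 in both, for which the 95% Poisson upper limit is 3.69 counts in each library. Several transcripts of Cox6b2 shared its TPM: Cox6b2-201 led in replicate 1 with 24.7% and Cox6b2-203 in replicate 2 with 25.4%.

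The count ratio between the libraries placed the members close to all other genes. It was taken as the log2 ratio of replicate 1 over replicate 2 of counts scaled to library size with TMM factors, for 17763 genes with enough counts, among them 95 members. The nuclear members had a median of 0.07 and the mitochondrial ones of 0.11, against 0.002 for all genes. Above 0 lay 60 of 82 nuclear and 11 of 13 mitochondrial members, against 50.4% of all genes. Only Cox6a2 was more than 2-fold higher in replicate 1, against 1.24% of all genes, and no member was more than 2-fold lower, against 2.34%. Cox8b, which did not pass the count filter, was 14.4-fold higher in TPM.

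The highest ratios after Cox6a2 and Cox7a1 belonged to mt-Co3 (0.91), mt-Nd3 (0.53) and Cox7c (0.40), and the lowest to Ndufa4l2 (-0.27), Cox6a1 (-0.19), Cox4i2 (-0.18), Atp5d (-0.16) and Ndufs8 (-0.15). With the copies' reads added, the ratio of mt-Co3 was 0.04, while mt-Nd3 kept 0.45 and Cox7c 0.37. Scaling by the spike-ins, which took 3.08% of counts in replicate 1 and 2.05% in replicate 2, moved the median of all genes to -0.57 and that of the nuclear and mitochondrial members to -0.50 and -0.47. Relative to all genes the members thus stood 0.07 and 0.10 higher.

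Subunit transcripts are short, and the ratio went with length among abundant genes. The median effective length (the number of positions a read can start from) was 560 bases for nuclear subunits and 2412 bases for protein-coding genes with enough counts. Nuclear members under 500 bases had a median ratio of 0.10 (25 of 32 above 0), those from 500 to 1000 bases 0.06 (24 of 32) and those over 1000 bases 0.03 (11 of 18). Other protein-coding genes at a mean of 100 TPM or more had medians of 0.18, 0.03 and -0.03 in the same classes, so members lay lower than abundant genes in the shortest class and higher in the other 2 classes. All genes with enough counts showed no such order, with class medians of -0.02, 0.002 and 0.003 and a Spearman's rho of 0.06 between length and ratio. Across the 75 nuclear subunits Spearman's rho between length and ratio was -0.28, as a description over genes that share the same 2 libraries. The part of length in the members' higher median was not tested.

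**Figure D5:**
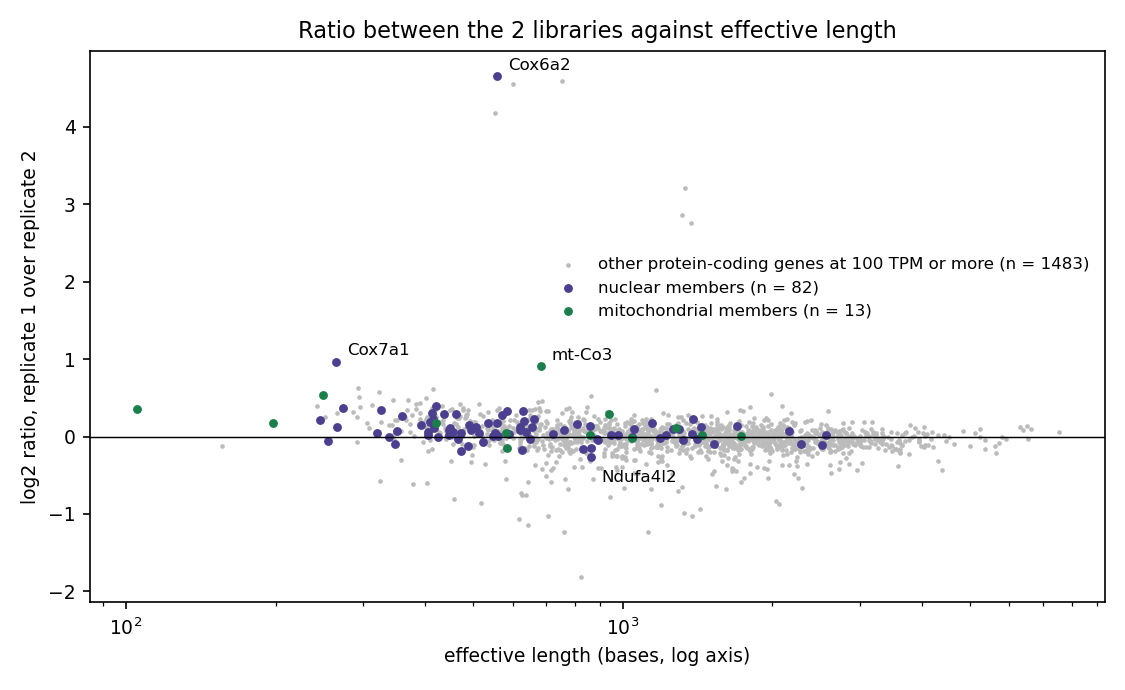
log2 ratio of replicate 1 over replicate 2 against effective length (log axis) for 82 nuclear members (purple), 13 mitochondrial members (green) and 1483 other protein-coding genes at a mean of 100 TPM or more (grey). Members lie along the grey cloud near 0 except Cox6a2 at 4.66, Cox7a1 at 0.97 and mt-Co3 at 0.91.

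The 3 X-linked members were Ndufa1, Ndufb11 and Cox7b, all at similar levels in the libraries, in which Y-linked genes and Xist differed as given above. Ndufa1 stood at 337 and 334 TPM in replicates 1 and 2, Ndufb11 at 203 and 186, and Cox7b at 350 and 338. The expected counts of Cox7b gave a log2 ratio of 0.28 although its TPM hardly differed, because its mean effective length was 610.0 bases in replicate 1 and 532 in replicate 2: its protein-coding transcript Cox7b-201 held 46.2% and 35.2% of the gene's TPM and the retained-intron transcript Cox7b-203 43.3% and 46.8%.

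For most members 1 transcript led in both libraries. Of 57 members with 2 or more annotated transcripts, 55 had the same leading transcript in both, and in 51 it held over 50% of the gene's TPM in each. In 6 members the leader was annotated as other than protein-coding: Atp5f1, Atp5j, Cox5b, Ndufa10, Ndufa5 and Ndufb4. These counts were taken over members only, so no share of all genes stands beside them. For Atp5f1 a transcript marked for nonsense-mediated decay held 65.6% and 68.3%, and for Ndufa5 a processed transcript held 92.9% and 90.7%. Cox4i1 (97.1% and 94.8%), Cox6a1 (99.1% and 98.7%) and Sdha (89.1% and 87.8%) each had 1 coding transcript that held most, and Cox7a2 and Ndufs4 had a single transcript.

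Known alternative forms of Atp5c1 and Ndufv3 were both present. The gamma subunit gene Atp5c1 has a 37-base exon (chr2:10056770-10056806, minus strand) that is skipped in heart and skeletal muscle. The end of the coding sequence is shown for the transcripts with and without it, the 30 bases before the junction in lower case and the bases after it, up to the stop codon, in capitals.
Atp5c1-203 with the exon: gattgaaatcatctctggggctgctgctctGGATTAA
Atp5c1-201 without the exon: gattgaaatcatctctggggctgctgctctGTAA
Inclusion adds 1 codon before the stop. The transcript with the exon held 81.2% of Atp5c1 TPM in replicate 1 and 82.4% in replicate 2, and the one without it 17.4% and 16.3%. The form known from muscle thus made up a similar share in both libraries, beside 3.76% and 0.119% for Cox6a2 in its pair.

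Ndufv3, an accessory subunit beside the NADH site, has a 1092-base coding exon (chr17:31527310-31528401, plus strand) that makes a long form. The junction is shown in the same way, with 30 bases on each side.
Ndufv3-201 with the exon: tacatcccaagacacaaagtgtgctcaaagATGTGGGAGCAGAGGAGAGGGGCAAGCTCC
Ndufv3-202 without the exon: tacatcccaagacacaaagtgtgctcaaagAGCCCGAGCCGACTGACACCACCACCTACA
The exon adds 364 codons. The short form held 84.7% and 83.8% of Ndufv3 TPM and the long form 14.7% and 15.7%, so in both genes the forms kept their shares between the pools.

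Promoters of the nuclear members were searched for motifs of factors known to control respiratory genes. Sequences from RefSeq (GRCm38.p6, 250 bases before to 50 after the start) matched 67 of 85 nuclear members. Cox6a2, Cox4i1, Cox4i2 and Ndufa4l2 were among those without a sequence, so no motif could be searched for in them. The NRF1 core GCGCANGCG occurred in 20 of 67 (29.9%), against 10.1% of 16317 protein-coding genes with a sequence, detected here or not. The shares below use the same background, which was not matched to the members in level or CG content. The YY1 core AANATGGCG occurred in 10 of 67 (14.9%, against 3.85%), among them Atp5b, and the ERR site TCAAGGTCA in 2 (2.99%, against 0.380%), Atp5g3 and Sdhd. The GABP site CCGGAAGT occurred in 5 of 67 (7.46%, against 5.99%). The hypoxia response core NACGTGC occurred in 4 (5.97%, against 7.495%): Atp5g3, Ndufa1, Cox7a1 and Cox8b. No match to MEF2, a muscle factor's site, was found in the 67, against 3.17% of genes. All were searched on both strands, and none of the spelled motifs contains another. A match is a run of letters and says nothing of binding. The median number of CG pairs per 300 bases was 19 in members and 16 in protein-coding genes. For a gene with several promoter sequences, the highest CG count was taken, and a motif counted if any of them held it. Genes with more annotated starts thus had more chances of a match or a high count.

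The 2 muscle isoforms with a promoter sequence held fewer CG pairs than their partners. The 100 bases before the RefSeq start (GRCm38.p6) are shown for the 2 muscle isoforms with a sequence in the table, Cox7a1 and Cox8b, and for their partners, so that the CG content can be compared. None of the motifs above lies in these windows, so no letter is in capitals.
Cox7a1, chr7:30184071-30184170, plus strand: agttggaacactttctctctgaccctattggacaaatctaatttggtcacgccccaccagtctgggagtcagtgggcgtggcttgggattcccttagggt
Cox7a2, chr9:79759854-79759953, minus strand: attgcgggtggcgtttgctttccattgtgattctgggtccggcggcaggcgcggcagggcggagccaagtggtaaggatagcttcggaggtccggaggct
Cox8b, chr7:140900447-140900546, minus strand: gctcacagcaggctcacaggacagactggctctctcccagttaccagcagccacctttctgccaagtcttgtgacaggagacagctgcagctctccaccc
Cox8a, chr19:7217617-7217716, minus strand: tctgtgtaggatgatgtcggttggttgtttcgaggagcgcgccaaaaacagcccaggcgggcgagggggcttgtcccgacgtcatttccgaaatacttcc
The muscle forms hold 2 (Cox7a1) and 0 (Cox8b) CG pairs in these windows and the partners 9 each. Over the full 300 bases the counts were 7 and 2 against 20 for Cox7a2 and 19 for Cox8a. Low counts were not particular to muscle forms. The ubiquitous Cox7b held 5, below the 10 of its testis form Cox7b2, and Cox6b2 held 10 against 17 for Cox6b1.

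Many members also start next to another gene. In 19 of 85 nuclear members (22.4%) another protein-coding gene on the opposite strand starts within 1000 bases, against 9.33% of the 13815 protein-coding genes detected in both libraries. The starts of Ndufa7 and the ribosomal protein gene Rps28 lie 10 bases apart, with 368 and 373 TPM for Ndufa7 and 760.0 and 623 for Rps28. Sdhd and Timm8b, a mitochondrial import gene, lie 98 bases apart at 302 ± 8.20 TPM for Sdhd and 186 and 168 TPM for Timm8b. Neighbours could differ widely in level: Ndufa5 stood at 310.1 and 268 TPM and its neighbour Asb15 at 0.08 and 0.

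Genes that build and feed the chain were expressed at lower levels than the subunits. All 47 assembly factors reached 1 TPM in both libraries, with a median of 30.1 ± 0.552 TPM, led by Uqcc2 (216 and 204 TPM), Coa3 (161 ± 2.15 TPM) and Cox14 (142 ± 4.99 TPM), with Sdhaf3 lowest (4.12 and 3.80 TPM). The 20 biogenesis regulators had a median of 22.3 ± 2.78 TPM: Slirp, which binds mitochondrial mRNAs, stood at 235 and 216 TPM, Tfam, the packaging and transcription factor of mitochondrial DNA, at 61.4 and 54.2, Mterf3 at 48.8 ± 1.29, and the coactivator gene Ppargc1a lowest at 5.01 and 5.57. The 25 mitochondrial ribosomal proteins had a median of 97.8 ± 2.79 TPM, led by Mrpl17 (274 and 289 TPM), Mrps14 (215 ± 6.86) and Mrpl20 (161 ± 0.636), with Mrpl1 lowest (17.3 ± 1.93). The 13 citric acid cycle genes had a median of 121 ± 8.75 TPM, led by Mdh2 (441 and 448 TPM), the citrate synthase gene Cs (187 ± 9.89) and Idh3g (167 ± 11.3), with Dlst lowest (78.2 ± 2.14). No gene of these 4 lists was more than 2-fold different between the libraries in either direction; the median log2 ratios were 0.05 for assembly factors, 0.008 for regulators, 0.10 for ribosomal proteins and 0.03 for the citric acid cycle, beside 0.002 for all genes.

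Of 11 carrier and mobile electron carrier genes, 8 reached 1 TPM in both. The ADP/ATP exchanger Slc25a5 stood highest at 560 and 615 TPM, above Slc25a4, the form of heart and muscle, at 374 and 334, and the phosphate carrier Slc25a3 stood at 394 and 406. Slc25a4 had a log2 ratio of 0.19, beside the median of 4.38 for skeletal muscle markers. The somatic cytochrome c gene Cycs stood at 58.4 and 51.2 TPM, below the median nuclear subunit, and the testis forms Cyct (0 in both) and Slc25a31 (0.32 and 0.11 TPM) were near 0. The low TPM of Cycs also rests on annotated length. Its expected counts were 5098 and 2453, beside 4866 and 2706 for Ndufa2, which stood at 335 and 333 TPM. Copies were searched for members only, so reads of Cycs divided with copies were not examined.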

How the data were processed

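RNA of 2 pooled stomach samples was sequenced from 10 ng, per the labels, which list a SMARTer Ultra Low kit and ERCC spike-ins; whether strand was kept is not given, so overlapping and antisense genes cannot be told apart. The build is mm10 with gene annotation M4, as a text file deposited with each library says. Names of the alignment and quantification tools: not given in the sources used here. Expected counts (estimated reads, shared reads split), TPM, FPKM and posterior mean TPM with bounds are what the authors deposited, per the file headers. Effective length was the length less 99 bases for nearly all genes, so 100-base windows were used to find exact stretches shared between members' transcripts and pseudogenes (GENCODE M21, GRCm38).

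Expected counts were rounded, filtered (filterByExpr, 1 group) and TMM-scaled in edgeR 4.0.16 (R 4.3.3) with a prior count of 2; DESeq2 1.42.0 gave an alternative. Checked on simulated counts, the step returned the simulated ratios. Joins, intervals and alignments were done with biopython 1.88, scipy 1.17.1 and pandas 2.3.3, and plots with matplotlib 3.10.9. Levels with copies take all reads of member and copies over the member's length. Of 100 annotated symbols matching the pattern, 1 is a pseudogene and 1 repeats Atp5o under an identifier not used here.

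The members, lists, pairs and tests were chosen with earlier results of these data known. Named by rule were the mitochondrial members, isoforms and partners, the 3 highest nuclear members, the lowest of each complex, the 5 largest ratios each way, associated, X-linked and alternative-transcript genes and each companion list's 3 highest and its lowest; other subunits, copies, neighbours and markers were named after their values were seen. Precision depends on depth: the 95% Poisson upper limit for a count of 0 is 3.69 counts. It also depends on how reads were divided with copies. For mt-Co3 the posterior standard deviation of the count was 62.5% and 68.1% of its mean in replicates 1 and 2. With a single group, no differential test could be fitted.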

Additional observations from a re-analysis of the deposited data

How the results depend on the processing

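In all, 35 values were recomputed, giving 170 alternative values, of which 142 stayed within limits set by kind: 1 SD between libraries for levels, shares and differences (at least 0.05 points for isoform shares), 0.1 for log2 ratios between libraries and 1.5 times for counts and spans. With 2 libraries, leaving out either always stays within 1 SD of the mean. Alternatives that add reads of annotated copies, or leave isoforms out of the ratio, were chosen after seeing the data. The detection count stayed within 1.5 times of 96 at 0.5 TPM, 5 TPM, in FPKM, in posterior mean TPM and in either library alone, and 55 leading transcripts agreed under both alternatives. Adding copies gave a nuclear median of 316 TPM and share of 3.57%, a mitochondrial median of 2172 TPM and share of 4.04%, a mitochondrial over nuclear difference of 2.78 and a complex V difference of 1.23. Posterior mean TPM gave 1909.8 TPM, 2.72 and 1.12 for the mitochondrial median, that difference and complex V. Means in place of medians gave 2.35, leaving out members under 1 TPM a nuclear median of 308 TPM, and keeping isoforms a complex IV difference of 0.59. By expected counts Cox7a1 made up 1.74% and Ndufa4l2 29.3% of their pairs, since counts are not corrected for length. Spike-in scaling turned the median ratios to -0.50 (nuclear) and -0.47 (mitochondrial), and those of mt-Nd3, mt-Atp8 and Cox7c to -0.045, -0.22 and -0.18, with all genes at -0.57. Without the filter 2 members (Cox6a2 and Cox8b) were over 2-fold higher, and at 1.5-fold 3 were. No paired analysis was possible because the labels give 1 group.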
